A study of Homo sapiens with 9 samples.

Results

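TAGLN, MYLK and OXTR are 3 genes linked to contraction in smooth muscle and in the basal (myoepithelial) cells of the breast, and they were followed here in BT-549, a human triple-negative breast cancer line. They are 3 of the 14884 genes measured with a gene symbol, and each was read by a single feature of a whole-transcript array. They were chosen by measured values of these same arrays, so their levels and differences are a description and carry no test. The study compared 3 groups of 3 samples. Mock cells received the lipid reagent (Lipofectamine RNAiMAX) alone, negative control cells received an unrelated small RNA at 50 nM, and mimic cells received mature miR-150-5p at 50 nM. All groups thus share the line, the serum-containing RPMI-1640 medium, the lipid and a medium change at 24 h, and RNA was taken at 72 h. BT-549 is 1 tumour-derived line, and whether the 3 samples of 1 treatment came from separate cultures is not stated in the labels, and spreads and p-values are those between these samples, which can be technical.

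TAGLN (transgelin, SM22-alpha) is an actin-binding protein of contractile cells. MYLK encodes myosin light chain kinase, which is switched on by calcium and calmodulin and phosphorylates the myosin light chain so that myosin pulls on actin. OXTR is the receptor for oxytocin, which couples through Gq to phospholipase C and calcium release and so leads to activation of MYLK, and in the lactating breast it makes myoepithelial cells squeeze out milk. Many contractile genes, TAGLN among them, are driven by serum response factor (SRF) with the actin-sensing cofactors MRTFA and MRTFB at a DNA element called the CArG box.

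RefSeq start-site windows (GRCh38.p14, 250 bases before a start and 50 from it) were matched for 2 of the 3 genes, 1 window for MYLK and 3 for OXTR, all on the minus strand of chromosome 3. The MYLK window belongs to a start 10499 bases from the 3′ end of this gene of 274284 bases, the region that makes telokin, a short product of MYLK known from smooth muscle. The bases before that start (chr3:123620549-123620798) and before the outermost OXTR start (chr3:8769614-8769863) are shown 5′ to 3′ because they differ in the CArG box, the only element in capitals.
MYLK: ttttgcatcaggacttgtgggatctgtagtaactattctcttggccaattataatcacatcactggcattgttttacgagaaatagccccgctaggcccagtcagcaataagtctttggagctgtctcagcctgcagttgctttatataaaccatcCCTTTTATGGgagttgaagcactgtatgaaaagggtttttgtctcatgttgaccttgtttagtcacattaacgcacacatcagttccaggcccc
OXTR: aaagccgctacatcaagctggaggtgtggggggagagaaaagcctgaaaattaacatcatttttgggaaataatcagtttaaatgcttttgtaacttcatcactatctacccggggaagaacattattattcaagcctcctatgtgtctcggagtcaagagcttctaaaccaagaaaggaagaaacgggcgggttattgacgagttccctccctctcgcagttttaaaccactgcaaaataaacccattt
The MYLK window held 1 CArG box, beginning 94 bases before the start, and 2 copies of TATAAA on opposite strands that overlap each other, beginning 109 and 105 bases before it. It also held CATTCC, the core of the element bound by TEAD factors, across the start itself. Of 34943 windows of 300 bases, 453 (1.3%) held a CArG box, 11.6% held TATAAA and 14% held CATTCC, both strands searched. The 3 OXTR windows held none of these, nor the AP-1 element TGACTCA (4.96% of windows), and the innermost of them held 2 copies of CACCTG, the E-box bound by SNAI2 and ZEB1, present in 20.6% of windows. These matches describe letters in the windows shown, and no binding was measured. The only MYLK window lies 263784 bases from the 5′ end of the gene, so starts nearer that end are not described. TAGLN had no window. Whether the MYLK feature reads telokin, and any link of these windows to the group patterns, was not tested.

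The values are log2 signals, so a difference of 1 is a doubling, and differences between group means carry the SE of the limma fit, n = 3 per group. Array medians lay between 2.43 and 2.48, and Pearson's r between arrays was 0.981 to 0.989 within groups and 0.977 to 0.986 between them, across features, which are not independent replicates. Of the genes tested, the arrays of the 2 groups did not overlap for 12% between negative control and mock, 20.2% between mimic and mock and 18.6% between mimic and negative control. Any 2 of these comparisons share the arrays of 1 group, so their values are set side by side and are not separate evidence.

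TAGLN was high in mock and low after either small RNA. Its log2 signal was 5.37, 5.05 and 5.22 on mock arrays 1 to 3, 3.83, 4.12 and 3.79 on the negative control arrays, and 4.19, 4.19 and 3.94 on the mimic arrays. All 3 mock arrays lay above all 6 others, and the negative control and mimic arrays overlapped. The group means were 5.21 ± 0.159 for mock, 3.91 ± 0.181 for negative control and 4.11 ± 0.144 for mimic arrays (SD, n = 3 each). The negative control minus mock difference was -1.30 ± 0.124, which is 40.7% of the mock signal, and in the order of all genes it was the 8th lowest. The mimic minus mock difference was -1.10 ± 0.124 (46.5% of mock), and that between mimic and negative control was 0.19 ± 0.124, or 0.30 without negative control 2. The gap between the lowest mock and the highest negative control array was 0.93. Mock 2 was the lowest mock array and negative control 2 the highest of its group, and these were also the arrays on which 23 small nucleolar and Cajal body RNA features read highest in their groups (6.78 and 6.83 on average, against 5.62 to 5.91 on the other mock and negative control arrays). On mimic arrays 1 to 3 these features read 6.43, 5.95 and 6.75. Without both, the TAGLN difference between negative control and mock was -1.48; their part in the result was not tested beyond that. In a culture measured in bulk, fewer cells expressing a gene and less RNA per cell cannot be told apart.

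MYLK had the same order of groups at a smaller size. The mock arrays read 3.69, 3.49 and 3.50, the negative control arrays 3.11, 2.90 and 3.10, and the mimic arrays 3.05, 3.17 and 3.11. Every mock array was above every other array, and the 2 small RNA groups overlapped. The means were 3.56 ± 0.109, 3.04 ± 0.117 and 3.11 ± 0.0599 (SD, n = 3). The negative control minus mock difference was -0.52 ± 0.0915 (69.7% of the mock signal), mimic minus mock was -0.46 ± 0.0915 (72.9%), and mimic minus negative control was 0.07 ± 0.0915. That last value was -0.00 without negative control 2 and 0.04 without mimic 2, so no direction is given for it. MYLK thus read 2.90 to 3.69, above but near the array medians, and 48.4% of the genes tested had a lower mean.

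OXTR read alike in mock and negative control and was low with the mimic. It read 7.66, 7.46 and 8.09 on mock, 7.46, 7.55 and 7.80 on negative control and 6.93, 6.39 and 6.68 on mimic arrays. The mock and negative control arrays overlapped, and the 3 mimic arrays lay below all 6 of them with a gap of 0.53. The means were 7.74 ± 0.321, 7.60 ± 0.175 and 6.67 ± 0.275 (SD, n = 3). Mimic minus negative control was -0.94 ± 0.183, or 52.1% of the negative control signal, and mimic minus mock was -1.07 ± 0.183 (47.6%). Negative control minus mock was -0.13 ± 0.183, and it moved between -0.27 and 0.04 over the alternatives, so that no direction is given for it.

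**Figure D1:**
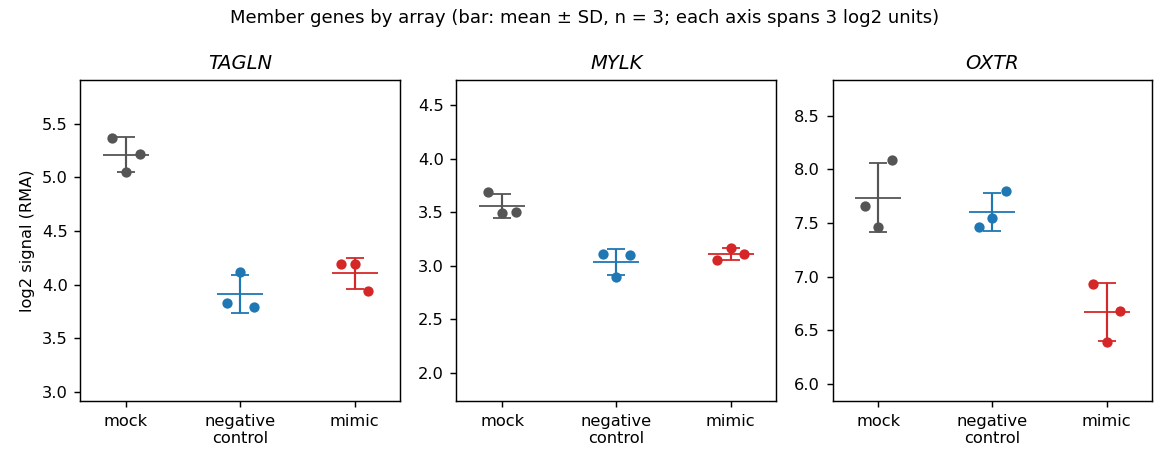
Log2 signal (vertical axis, 3 log2 units in each panel) of TAGLN, MYLK and OXTR on the 3 mock, 3 negative control and 3 mimic arrays; points are arrays and bars the mean ± SD. TAGLN and MYLK are apart from mock in both small RNA groups, whereas OXTR is apart in the mimic arrays.

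The 3 genes thus gave 2 patterns across the groups. In the order of TAGLN and MYLK, mock was highest and the negative control and mimic arrays overlapped, whereas in the order of OXTR the mock and negative control arrays overlapped and the mimic was lowest. The root mean square difference over the 9 arrays, after each gene was centred on its own mean, was 0.377 log2 between TAGLN and MYLK, 0.596 between TAGLN and OXTR and 0.481 between MYLK and OXTR. This measure counts the size of a change as well as its order: 75 genes were nearer to TAGLN than MYLK was, but 12348 were nearer to MYLK than TAGLN was, since MYLK moved little (0.245 around its own mean, against 0.587 for TAGLN).

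By that measure the gene nearest to TAGLN was RND3, a small GTPase that opposes RHOA signalling to actomyosin, at 0.186, with group means of 7.72, 6.55 and 6.88 in mock, negative control and mimic. The next were the microRNA gene MIR329-1 (0.191), CD274, which encodes the immune checkpoint ligand PD-L1 (0.216), the ephrin gene EFNB2 (0.222) and DDIT3, a stress-induced transcription factor (0.244). Nearest to MYLK was ARHGAP26, which encodes a GTPase-activating protein (0.071, with means of 3.99, 3.46 and 3.59), followed by AHI1, a protein of the cilium base, PGAP1, which remodels lipid anchors, RAX2 and LINC00997, at 0.084 to 0.0941. RAX2 read 2.46, 1.84 and 2.01 on average, at or under the array medians. Nearest to OXTR was the protocadherin gene PCDH18, at 0.102, with means of 6.98, 7.03 and 6.0. It was followed by NFE2L1, a transcription factor of proteasome genes (0.152), MTCH2 of the outer mitochondrial membrane (0.176), the carboxypeptidase gene CPM (0.181) and ACSL4, which activates long-chain fatty acids (0.184). These genes were picked for their likeness out of 14884, so the distances describe them and test nothing.

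**Figure D2:**
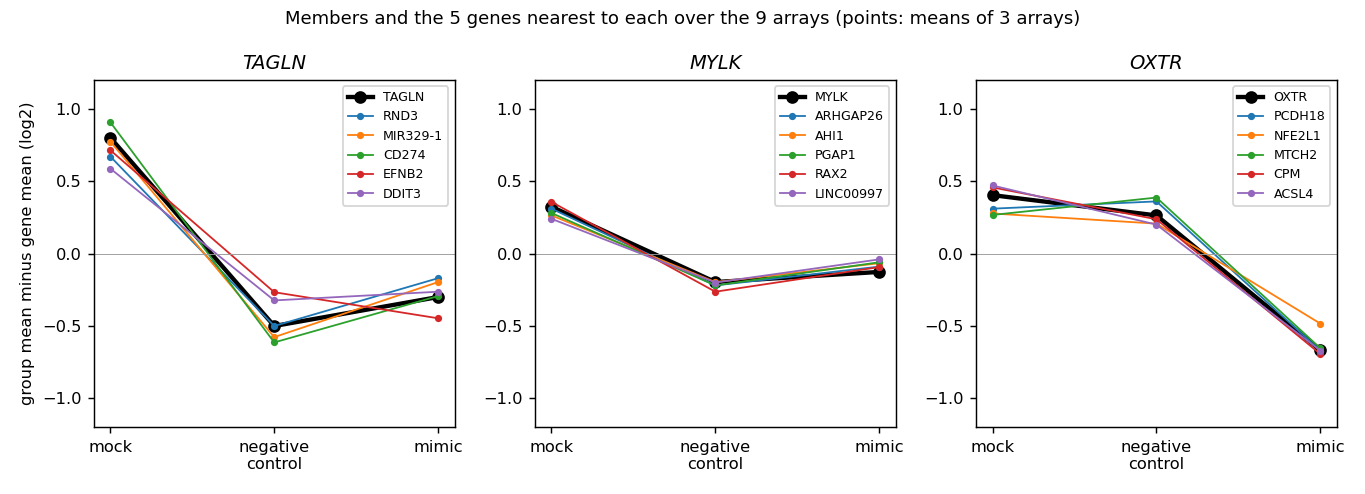
Group means (vertical axis, log2, minus the mean of the 3 group means) of each member, in black, and of the 5 genes nearest to it over the 9 arrays, in colour. The TAGLN and MYLK sets drop from mock to negative control, and the OXTR set drops from negative control to mimic.

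To place the 3 genes in their pathway, 4 lists from general knowledge were read: contractile filament proteins, control of myosin light chain phosphorylation, SRF with its cofactors and targets, and oxytocin signalling. These lists, and the marker lists below, were chosen with earlier results of these data known. Their counts beside the shares of all genes are thus a description and not separate evidence. Of 138 symbols in them, 69 had a feature annotated with exactly 1 symbol and count as measured, and the members are in none. The other symbols, ACTB, MYH9 and ROCK1 among them, had no such feature and were not analysed, whether or not the array reads them. The same holds for the marker lists. Genes were tested across all 14884 with limma on the 9 arrays and called at a Benjamini-Hochberg adjusted p under 0.05. Shares of all genes given below include dim genes, as no filter on signal was set. Genes at or above the median signal, fitted and adjusted alone, gave more calls. Between negative control and mock 97 fell and 53 rose, against 71 and 25 over all genes. Between mimic and mock 305 fell and 513 rose, against 241 and 339. Between mimic and negative control 246 fell and 348 rose, against 211 and 262. Shares called were thus higher among brighter genes than over all genes. The smooth muscle genes ACTA2, CNN1, MYH11, MYL9 and the ligand gene OXT were not analysed here.

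Between negative control and mock, the comparison in which TAGLN and MYLK were apart, 4 of the 69 fell and 0 rose (5.8% and 0%), where 0.477% of all genes fell and 0.168% rose. The list median was -0.03, against 0.01 over all genes, and the arrays did not overlap for 20 of 69 (29%, against the 12% above). The 4 were RND3, ARHGAP42, CCN2 and CALD1. RND3 read 7.66, 7.65 and 7.85 on mock and 6.47, 6.56 and 6.61 on negative control arrays, a fall of 1.17 on the log2 scale (SE 0.0952, adjusted p = 0.00127). CCN2 (connective tissue growth factor), a secreted protein and known target of SRF and of YAP with TEAD, read 9.06, 9.04 and 9.42 on mock and 8.15, 8.23 and 8.37 on negative control arrays (-0.92 ± 0.113, adjusted p = 0.00952), and its dimmer feature gave -1.76. CALD1, or caldesmon, which binds actin and tropomyosin, was at 6.10, 5.42 and 5.92 and then 4.87, 4.80 and 4.80 (-0.99 ± 0.151, adjusted p = 0.0208). ARHGAP42, a GTPase-activating protein that restrains RHOA in smooth muscle, was at 7.16, 6.99 and 7.25 and then 6.51, 6.35 and 6.51 (-0.67 ± 0.0997, adjusted p = 0.0183). In each of the 4 genes all mock arrays lay above all negative control arrays, as for TAGLN and MYLK. Unlike in those, the mimic arrays all lay above the negative control arrays for RND3 (0.33, adjusted p = 0.107), CALD1 (0.35, 0.286) and CCN2 (0.16, 0.546), differences that did not pass.

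These 4 calls depended on how the arrays were treated. Mock and negative control arrays of the same number deviated together weakly (r = 0.147 to 0.225 across genes). With the replicate number as a block on all 9 arrays the 4 calls held, while the calls over all genes went from 96 to 61. On these 6 arrays alone with the same block, which leaves 2 residual degrees of freedom, limma called 0 genes, with 1735 at an unadjusted p under 0.05, 22 of them among the 69, and RND3, CCN2, ARHGAP42 and CALD1 had adjusted p = 0.0646, 0.0695, 0.0986 and 0.114. CALD1 and ARHGAP42 also missed without mock 1, mock 3 or any 1 negative control array, and CALD1 without mimic 3 (adjusted p up to 0.1), whereas RND3 and CCN2 held when any 1 array was left out. Without mock 2 and negative control 2 together, CCN2 and ARHGAP42 missed (adjusted p = 0.0638 and 0.064), and on the 6 arrays without a block all but RND3 did (0.0792 to 0.134). The count of 4 was 2 without each of mock 1, mock 3 and negative control 1, 2 and 3. After a second quantile normalization 2 of the 69 rose and 4 fell, and over all genes the share of calls that rose went from 26% to 41.2%.

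Between mimic and mock, where all 3 members were low, 9 of the 69 fell and 1 rose (13% and 1.45%), against 1.62% and 2.28% of all genes, with a list median of -0.07 against 0. The arrays did not overlap for 22 of 69 (31.9%, against 20.2% of all genes). Of the 23 filament genes 4 fell, 3 of them tropomyosins, which lie along actin and set how myosin reaches it. TPM1 read 6.19, 5.53 and 5.99 on mock, 5.44, 5.14 and 5.36 on negative control and 4.27, 4.94 and 4.53 on mimic arrays, and mimic minus mock was -1.32 ± 0.198 (adjusted p = 0.00814), with -1.14 on its other, dimmer feature. TPM2 read 7.66, 7.56 and 7.77, then 7.35, 7.30 and 7.48, then 6.91, 6.81 and 6.65 (-0.87 ± 0.0969, adjusted p = 0.00215). TPM4 was at -0.51 ± 0.085 (adjusted p = 0.0128, lost without mock 1 or mimic 1, at most 0.0573). The arrays of TPM1 and TPM2 lay in steps, mock above negative control and these above mimic, an order that no member shows. The steps from mock to negative control did not pass by limma (-0.59 and -0.29, adjusted p = 0.288 and 0.289). From negative control to mimic TPM2 passed (adjusted p = 0.0136) and TPM1 did not (adjusted p = 0.0878).

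The fourth filament gene to fall was TGFB1I1, also known as Hic-5, a focal adhesion protein, at -0.91 ± 0.204 (adjusted p = 0.0409, lost without mock 2, mock 3, negative control 3 or any 1 mimic array, at most 0.116). SRF itself read 6.12, 6.51 and 6.49 on mock, 6.12, 6.07 and 6.25 on negative control and 5.79, 5.74 and 5.61 on mimic arrays. It fell by 0.66 on the log2 scale against mock (SE 0.116, adjusted p = 0.0167, lost without mock 2 or any 1 mimic array, at most 0.0641), and was at -0.43 against the negative control (adjusted p = 0.087) and -0.23 between negative control and mock (adjusted p = 0.531). Its cofactors MRTFA, at 5.47, 5.51 and 5.48 on average in mock, negative control and mimic, and MRTFB, at 6.89, 7.01 and 7.13, passed in no comparison, and the muscle cofactor MYOCD read 1.92 to 2.11, under the array medians. Of the 19 measured SRF genes 5 fell against mock and 0 rose (26.3% and 0%, against 1.62% and 2.28% of all genes). The list median was -0.02, with 8 genes above 0 and 11 below. The 5 were CCN2 (-0.76 ± 0.113, adjusted p = 0.00807), TPM1, TGFB1I1, SRF and DSTN. TPM1 and TGFB1I1 are also among the filament genes that fell, so the counts of these lists overlap. DSTN, or destrin, which severs actin filaments, was named after its value was seen; at -0.52 ± 0.121 its adjusted p = 0.0483 rose above 0.05 without each of the 9 arrays (up to 0.14) and with the replicate block (0.0935).

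Among the genes that set myosin light chain phosphorylation, RND3 and ARHGAP42 were the 2 of 17 measured (11.8%) that fell in each comparison against mock, and 0 rose. Over all genes 0.477% fell and 0.168% rose between negative control and mock, and 1.62% and 2.28% between mimic and mock. With the mimic RND3 fell against mock by 0.84 on the log2 scale (SE 0.0952, adjusted p = 0.00225) and ARHGAP42 by 0.88 (SE 0.0997, adjusted p = 0.00225). The other 15 lay between -0.22 and 0.19 and did not pass. Between negative control and mock the other 15 lay between -0.46 and 0.28. Between mimic and negative control all 17 lay between -0.35 and 0.34, 0 passed by limma (lowest adjusted p = 0.107), and the arrays did not overlap for 7 of 17 (41.2%, against 18.6% of all genes). PAK2, a kinase activated by RAC and CDC42 that was picked out after its values were seen, was at -0.46 between negative control and mock (adjusted p = 0.177) and at 0.34 between mimic and negative control (adjusted p = 0.219), with arrays apart in both. On mimic arrays RND3 read 7.02, 6.76 and 6.85, and ARHGAP42 6.36, 6.28 and 6.12. RHOA (-0.09), RHOB (-0.11) and RHOC (-0.07), the GTPases upstream of myosin phosphatase, had adjusted p = 0.699, 0.846 and 0.863 for mimic against mock, and RHOC was at -0.35 for mimic against negative control (adjusted p = 0.211). The relatives MYLK2 and MYLK3, kinases of skeletal and heart muscle, read 2.32 to 2.45 and 1.81 to 2.08 over the 9 arrays, at or under the array medians, and MYLK4 was not analysed here. The count of 10 calls was 5, 6 and 6 without mimic 1, 2 and 3. Over all genes the share of calls that rose was 58.4%, and 44.6% after a second quantile normalization, under which 10 of the 69 fell and 0 rose.

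Between mimic and negative control, where OXTR was low, 2 of the 69 fell and 0 rose (2.9% and 0%), against 1.42% and 1.76% of all genes. The list median was -0.01, that of all genes 0, and the arrays did not overlap for 21 of 69 (30.4%, against 18.6% of all genes). TPM2 fell by 0.58 on the log2 scale (SE 0.0969, adjusted p = 0.0136, lost without negative control 3 or mimic 3, at most 0.0547). TAGLN2, the close relative of TAGLN made in many cell types, fell by 0.58 as well (SE 0.0883, adjusted p = 0.00887). It read 5.24, 5.11 and 5.38 on mock, 5.63, 5.69 and 5.65 on negative control and 5.10, 5.14 and 4.98 on mimic arrays. The negative control arrays were the highest for TAGLN2, and negative control minus mock was 0.41 ± 0.0883 for TAGLN2 (adjusted p = 0.0869), so its order of groups was not that of TAGLN. The other relative, TAGLN3, read 2.06 to 2.50, near the array medians. The count of 2 was 1 without negative control 3 or mimic 3, and 3 (1 up, 2 down) when arrays were centred on their medians; over all genes the share of calls that rose was 55.4%, and 37.8% after a second quantile normalization.

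**Figure D3:**
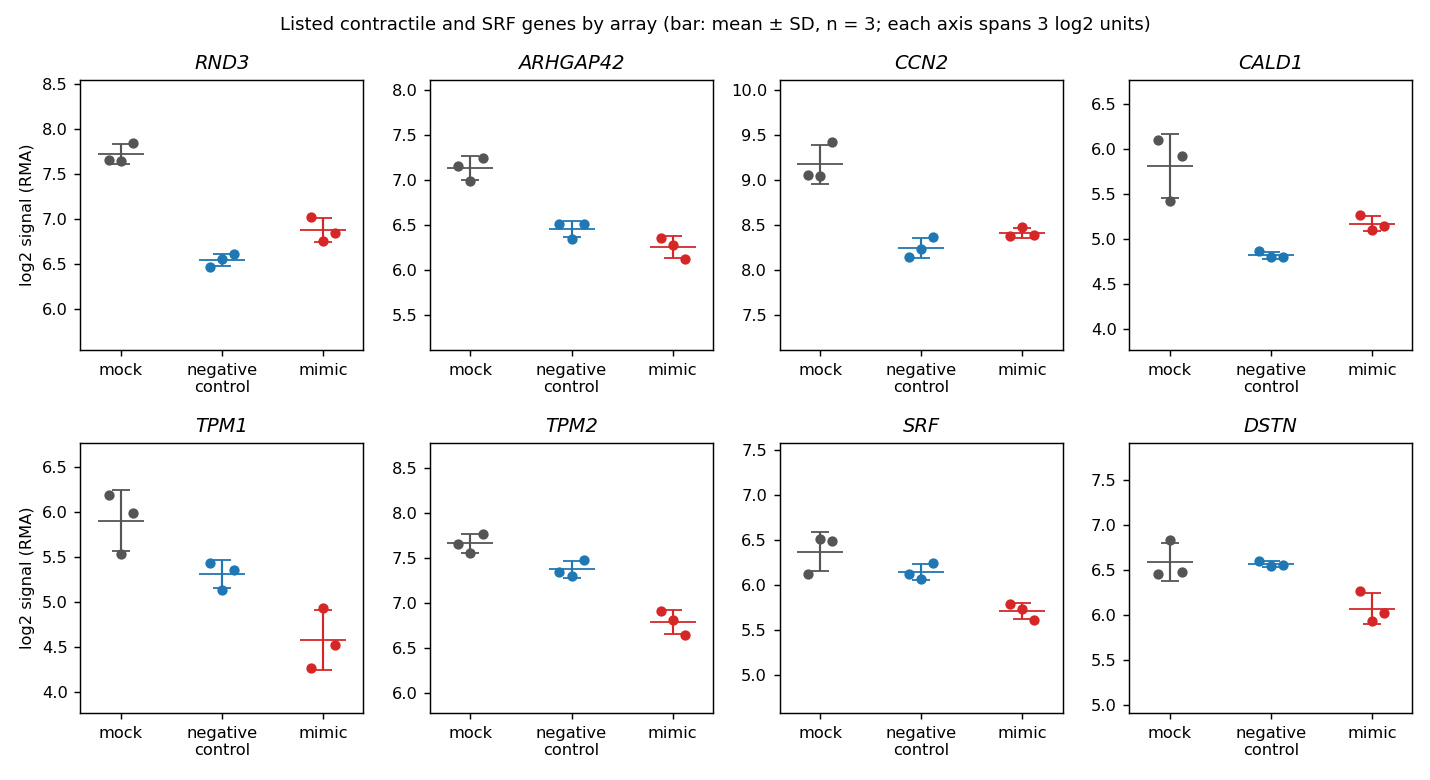
Log2 signal (vertical axis, 3 log2 units in each panel) of 8 listed genes on the 9 arrays; points are arrays and bars the mean ± SD of 3. All small RNA arrays lie below all mock arrays for RND3, ARHGAP42, CCN2 and CALD1, as for TAGLN and MYLK. The mimic arrays lie above the negative control arrays for RND3, CCN2 and CALD1, differences that did not pass. SRF and DSTN are lowest in the mimic arrays. TPM1 and TPM2 step down through the groups, though not every step passed.

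Around OXTR, 15 genes of oxytocin signalling were measured. Of these, 0 passed between mimic and negative control by limma (lowest adjusted p = 0.0556), where 1.76% of all genes rose and 1.42% fell, so that a list this short is near that share with no call. Their differences ran from -0.29 to 0.55, with a median of 0.02. The highest was RGS5, which also had that lowest adjusted p, and its mimic arrays lay above its negative control arrays. Against mock 1 of 15 rose with the mimic (6.67%, against 2.28% of all genes) and 0 fell. It was GRK6, a kinase that desensitises receptors coupled to G proteins, which read 6.35, 6.18 and 6.36 on mock, 6.73, 6.51 and 6.90 on negative control and 6.77, 6.76 and 6.72 on mimic arrays. Its difference was 0.45 ± 0.105 (adjusted p = 0.0462). That adjusted p was 0.0756 after a second quantile normalization and 0.0629 with the replicate block. It was at most 0.145 when mock 1, 2 or 3, negative control 1 or any 1 mimic array was left out. GRK6 was also at 0.42 between negative control and mock (adjusted p = 0.139), and at 0.04 between mimic and negative control (adjusted p = 0.917). The vasopressin receptors, the nearest relatives of OXTR, were low or flat: AVPR1A read 1.68 to 1.92, AVPR1B 1.82 to 2.62 and AVPR2 2.71 to 3.24. The calcium entry genes STIM1 (0.06) and ORAI1 (0.02) had adjusted p = 0.828 and 0.961 for mimic against negative control.

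**Figure D4:**
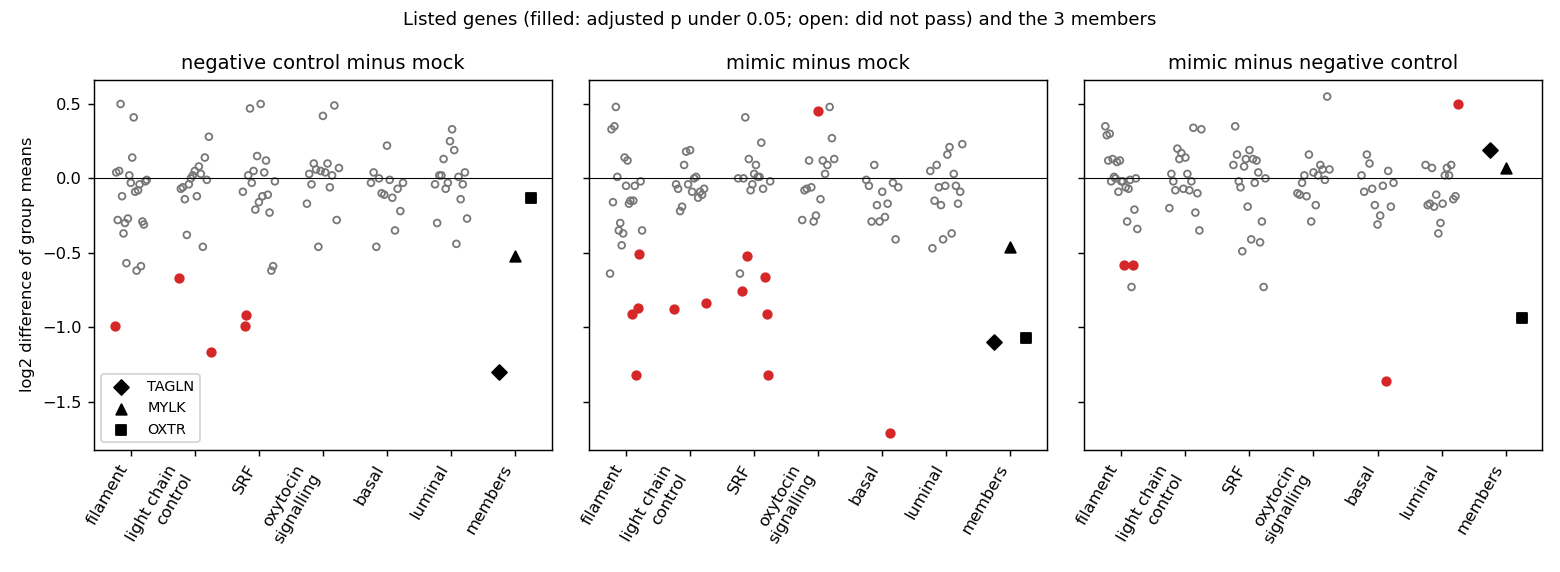
Log2 difference of group means (vertical axis) for the genes of 6 lists and for the 3 members in each comparison; each circle is a gene, filled where its adjusted p was under 0.05, and a gene in 2 lists appears under both. Filled genes of the filament, light chain and SRF lists lie below 0 in the panels against mock. In the panel of mimic minus negative control OXTR lies below TAGLN and MYLK, while SNAI2 of the basal list lies lower still.

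The word basal was checked against markers of breast cell types. Of 34 basal and myoepithelial markers 13 were measured. The basal keratin KRT5 read 1.71 to 2.18 on the 9 arrays, under every array median, and KRT14 read 2.47 to 3.10, at or just above them; TP63, ACTA2, CNN1 and MYH11 were not analysed here. DSG3 and TRIM29 were also under every array median, and NGFR, S100A2 and SFN read 2.33 to 3.26. Other markers of the list were brighter: EGFR, a growth factor receptor, read 6.79 to 7.77, MME, a surface peptidase also known as CD10, 5.93 to 6.43, THY1 4.32 to 5.11, SOX10 3.90 to 4.13 and ANXA8 3.63 to 3.71. The markers thus read both low and high, and TAGLN, MYLK and OXTR are described by their names and not as a basal state. In this list 1 of 13 (7.69%) fell with the mimic, against both controls, and 0 rose, where 1.42% of all genes fell against the negative control and 1.62% against mock; 1 call in a list this short does not set it apart. It was SNAI2, a repressor of epithelial genes, which read 7.43, 7.26 and 7.50 on mock, 6.89, 6.88 and 7.36 on negative control and 5.53, 5.73 and 5.79 on mimic arrays (mimic minus negative control -1.36 ± 0.141, adjusted p = 0.00184). Like OXTR it was lowest in the mimic arrays. Between negative control and mock 0 of 13 passed by limma (lowest adjusted p = 0.39). The list median was -0.17 for mimic minus mock, with 1 gene above 0 and 12 below, against 0 over all genes. For mimic minus negative control the list median was -0.07 (4 above 0, 9 below), against 0. For negative control minus mock it was -0.07 (2 above 0, 11 below), against 0.01.

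Of 16 measured luminal markers, 1 (6.25%) rose between mimic and negative control and 0 fell, against 1.76% and 1.42% of all genes, again a single call. It was XBP1, a transcription factor of the secretory pathway, at 5.61, 5.67 and 5.51 on negative control and 6.21, 6.0 and 6.08 on mimic arrays (0.50 ± 0.0862, adjusted p = 0.0155, lost without negative control 3, mimic 1 or mimic 3, at most 0.0623). The luminal keratin KRT18 read 7.31 to 7.75, KRT8 3.44 to 4.27 and KRT19 2.37 to 3.02, while EPCAM (1.64 to 2.01), ESR1 (1.96 to 2.37) and PGR (1.77 to 1.85) were under the array medians, the last 2 being the estrogen and progesterone receptors that triple-negative tumours lack. GATA3, a luminal transcription factor, read 5.04 to 6.11. The median of the luminal list for mimic minus negative control was -0.12, with 7 genes above 0 and 9 below. Of 4 measured markers of blood, endothelial and fat cells (CD14, PECAM1, VWF and PLIN1) 0 passed in any comparison by limma (lowest adjusted p = 0.325).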

How the data were processed

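RNA from 9 BT-549 samples was read on Affymetrix Human Gene 2.0 ST arrays, with 1 ug of RNA per sample labelled with a biotin kit, per the labels' protocols. The authors deposited log2 signals from RMA, per the submitters' processing notes; RMA corrects background and brings arrays to like distributions, which can shrink differences of dim features. The version of RMA and the array definition are not stated in the labels. Precision is limited by having 9 arrays.

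Of 53617 features, 16098 had exactly 1 symbol in the platform annotation, all matched to RefSeq gene IDs, and 37519 had several or none. The brightest feature over the 9 arrays stood for a gene, with no filter on signal, leaving 14884 genes. limma 3.58.1 in R 4.3.3 (lmFit, eBayes, 6 residual and 9.6 total degrees of freedom) was fitted to all 9 arrays with 1 mean per group, two-sided, adjusted by Benjamini and Hochberg over all genes, and was tested on simulated data. Samples were grouped by the labels' treatment.

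The members and the 7 gene lists were chosen with earlier results of these data known. Named besides the members were up to 4 genes per list and comparison with the largest change among called genes whose arrays did not overlap, fixed identity markers and relatives, and the 5 genes nearest to each member; MYOCD, OXT and others of these are given where measured.

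Replicate numbers were checked by the correlation across genes of deviations from group means. Mock and negative control arrays of a number had r = 0.152, 0.225 and 0.147, whereas for mimic arrays the same r lay between -0.292 and -0.054. Each mock array had its highest r with the negative control array of its number, but these r are low. Mock 2 and negative control 2 also shared high small nucleolar RNA features, whose part in these r was not tested. The mock and negative control numbers may thus pair, which was not settled. The main fit had no block, so its p-values between negative control and mock do not take up any such pairing. Alternatives were other normalization, filters, weights, variance models, the 6 arrays compared, the replicate block, a stricter threshold and leaving out arrays.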

Additional observations from a re-analysis of the deposited data

How the results depend on the processing

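All 9 differences of TAGLN, MYLK and OXTR moved by less than the spread between replicates under each alternative run for them, except TAGLN between negative control and mock, which was -1.48 without mock 2 and negative control 2 together. That setting, and the block on 6 arrays, were chosen after seeing the data. Leaving out 1 of the 3 arrays of a group cannot move a difference by as much as that spread. Arrays of the third group do not enter a difference, and the mean of features cannot change a gene with 1 feature. Under these settings the outcome for the members was fixed and is no sign of robustness. The genes called between mimic and negative control (473) were 251 on only the 6 arrays compared, 292 with the replicate block, 140 at an adjusted p under 0.01 and 199 to 431 with 1 array left out. The 580 between mimic and mock were 904 with array weights, 321 on the 6 arrays, 346 with the replicate block, 144 at 0.01 and 188 to 650 with 1 array left out. The 96 between negative control and mock were 150 among the brighter genes (mean signal at least the median over genes), 18 on the 6 arrays, 61 with the replicate block, 0 with the block on these 6 arrays, 20 at 0.01, 28 without mock 2 and negative control 2 and 21 to 112 with 1 array left out. Of the 69 pathway genes, the 2 called between mimic and negative control were 4 after a second quantile normalization, 5 among brighter genes, 1 at 0.01 and 1 to 3 with 1 array left out. The 10 against mock were 5 at 0.01 and 5 to 10 with 1 array left out. The 4 between negative control and mock were 1 on the 6 arrays, 2 at 0.01, 2 without mock 2 and negative control 2, 0 with the block on 6 arrays and 2 to 4 with 1 array left out. Fits on fewer arrays have fewer degrees of freedom, and the cause of the other changes was not tested. The 19 calls of single listed genes named in the text kept their direction in every alternative. All 19 had arrays that did not overlap between the groups, so leaving out arrays could not have reversed a direction. With the replicate block on 9 arrays 17 of 19 passed, all but GRK6 and DSTN. Of the same 19, 13 passed on only the 6 arrays compared, where SRF, TGFB1I1 and DSTN against mock had adjusted p = 0.0521, 0.0715 and 0.109, 13 passed without mock 2 and negative control 2, 10 at 0.01, and 12 to 16 with 1 array left out, the 12 without mimic 3. Without scanner files, no detection limit could be set for dim features such as MYLK.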
